A study of Mus musculus with 6 samples.

Results

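The genes of the mitochondrial genome were taken as all genes that the count tables place on chromosome MT, and 35 of the 49315 counted genes met this rule. They were 13 protein-coding genes and 22 tRNA genes. The annotation holds 37 genes on this chromosome. The remaining 2, the rRNA genes, had no row in the count tables used here, so the values below leave them out. The counts came from bulk RNA-seq of hematopoietic stem and progenitor cells of WT mice and of ING4-/- mice, which lack the chromatin reader ING4 in all tissues. Lineage-depleted marrow of 8 to 10 mice of a genotype was pooled, and 1000 to 10000 cells per sample were sorted from it among LSK cells without CD48. LT-HSCs carried CD150 but not CD34, ST-HSCs carried both, and MPPs carried CD34 alone. WT C57BL/6 mice of 8 to 12 weeks served as controls in the study. The ING4-/- mice came from a colony kept on site and were 8 to 12 weeks old in another experiment of the study. Their age in the RNA-seq experiment is not given separately in the sources used here. The 6 libraries are 1 per population and genotype, so the 3 populations stood in for replicates of a genotype, and no test was possible within a population. Values of 3 libraries are given below in the order LT-HSC, ST-HSC, MPP.

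Mitochondrial DNA is a small circle present in many copies per cell. Both of its strands are transcribed over most of their length by a dedicated RNA polymerase, and the long precursors are cut at the tRNAs that lie between the other genes, so that neighbouring genes start out at the same rate and then differ in processing and decay. The mRNAs encode core subunits of respiratory complexes I, III, IV and V, and every other protein of the organelle is made from nuclear genes. HSCs are known for relying less on respiration than the progenitors they form.

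The reading of several of these genes depended on sequences that occur again in the nuclear genome. On chromosome 1 (GRCm38, minus strand), 7 annotated pseudogenes between positions 24611535 and 24616197 follow the order of a stretch of mitochondrial DNA from position 6390 to 11042, and 11 of the 35 genes lie inside this stretch, 2 lie partly in it and 22 lie outside it. The first bases of mt-Co2, which encodes a complex IV subunit, and the facing bases of the pseudogene Gm28661 are shown because no base differs between them. The mt-Nd3 pair and the end of mt-Co1 each hold 1 difference, printed in capitals. Sequences were read from the GENCODE transcripts of GRCm38, 5′ to 3′.
mt-Co2, chrMT:7013-7072, plus strand: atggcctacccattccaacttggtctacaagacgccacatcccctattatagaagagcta
Gm28661, chr1:24615506-24615565, minus strand: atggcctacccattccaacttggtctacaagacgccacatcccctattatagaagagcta
mt-Nd3, chrMT:9459-9518, plus strand: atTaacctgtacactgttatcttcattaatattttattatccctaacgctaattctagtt
Gm28438, chr1:24613060-24613119, minus strand: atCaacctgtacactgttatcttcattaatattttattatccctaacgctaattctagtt
mt-Co1, chrMT:6390-6449, plus strand: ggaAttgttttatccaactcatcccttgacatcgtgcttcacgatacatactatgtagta
Gm29216, chr1:24616129-24616188, minus strand: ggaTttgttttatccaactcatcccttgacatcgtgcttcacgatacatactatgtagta
Counted from 1 at the first base of the mitochondrial gene, the substitutions are T3C in mt-Nd3 and A1066T in mt-Co1, mitochondrial base first. Of all windows of 100 bases in a gene, an exact match in an annotated nuclear transcript was found for 99.9% in mt-Co3, 99.5% in mt-Co2 and in mt-Atp6, 98.5% in mt-Nd4l, 97.6% in mt-Nd3, 60.8% in mt-Nd4, 30.8% in mt-Co1 and 3.20% in mt-Nd2. No window of mt-Nd1, mt-Nd5, mt-Nd6 or mt-Cytb had one. For mt-Atp8, which lies inside the stretch, none was found in annotated transcripts either. How the counting treated reads with several matches is not given in the sources used here, so counts on the genes with copies are uncertain.

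Genes of this genome also share bases with each other. The longest overlap is that of mt-Atp8 and mt-Atp6, both subunits of ATP synthase, and its 43 shared bases are in capitals in the joint between them.
mt-Atp8 and mt-Atp6, chrMT:7907-7989, plus strand: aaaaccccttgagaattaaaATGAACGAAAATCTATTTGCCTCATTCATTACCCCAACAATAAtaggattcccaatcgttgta
The ends of mt-Nd5 and mt-Nd6, which lie on opposite strands, share 14 bases, mt-Nd4l and mt-Nd4 share 7, and the other overlaps span 1 to 3 bases. The tRNA genes that the results turn on are printed whole with the anticodon in capitals. The tRNAs for arginine, histidine and leucine (CUN codons) lie on the plus strand and those for asparagine, cysteine and glutamate on the minus strand.
mt-Tr, chrMT:9808-9875, plus strand: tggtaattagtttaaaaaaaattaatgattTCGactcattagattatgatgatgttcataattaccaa
mt-Th, chrMT:11546-11612, plus strand: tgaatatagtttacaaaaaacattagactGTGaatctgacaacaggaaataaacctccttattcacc
mt-Tl2, chrMT:11671-11741, plus strand: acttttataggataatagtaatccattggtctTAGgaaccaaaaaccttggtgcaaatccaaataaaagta
mt-Tn, chrMT:5089-5159, minus strand: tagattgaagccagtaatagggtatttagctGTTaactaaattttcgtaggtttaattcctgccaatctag
mt-Tc, chrMT:5192-5257, minus strand: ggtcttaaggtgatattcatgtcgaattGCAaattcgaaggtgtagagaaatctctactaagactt
mt-Te, chrMT:14071-14139, minus strand: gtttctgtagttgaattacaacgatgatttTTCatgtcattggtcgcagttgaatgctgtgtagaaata

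All 3 libraries of a genotype shared features that differ from those of the other genotype, and these bear on every comparison below. Total counts were 7839326 to 9363442 in WT and 35596876 to 39192588 in ING4-/-, while genes with at least 1 count numbered 36082 to 41763 in WT and 14680 to 16188 in ING4-/-. Across 1700 olfactory and vomeronasal receptor genes, few of which are used in blood cells, WT libraries held 18.3 to 23.0 counts per kb of exon and ING4-/- libraries at most 0.0812. Spread over all exons, this density is worth 33.9%, 33.4% and 22.9% of the WT counts and at most 0.0267% of the ING4-/- counts. Genotype, depth and this density cannot be told apart in these libraries. The 10 stem and progenitor markers summed to 1777 to 2977 CPM (counts per 1000000 counts of the library) in WT and 1992 to 3662 in ING4-/-, which fits the labels, with 1 marker at 0 in ING4-/- LT-HSCs. The 6 erythroid markers summed to 17.4 to 25.6 CPM in WT and 72.9 to 120 in ING4-/-, with up to 2 of them at 0, and their part in the mitochondrial results was not tested. The summed CPM of granulocyte, B cell and T or NK cell markers overlapped between genotypes. Of the 5 B cell markers, 4 were at 0 in each ING4-/- library and none in any WT library, and of the 5 T or NK cell markers 4, 4 and 2 were at 0 in ING4-/- and 1, 1 and 0 in WT. Ing4 itself had 247, 162 and 247 counts in WT and 0, 24 and 76 in ING4-/- (log2 fold change −4.49, SE 1.56, edgeR quasi-likelihood adjusted p = 0.0373, and 0.0783 with population as a block).

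The first question was how much of each library fell on the mitochondrial genome. In ING4-/- cells its genes took a larger share of the counts than in WT in every population. The share was 0.835%, 0.690% and 0.492% in the WT libraries. It was 1.28%, 1.16% and 0.936% in the ING4-/- libraries. The genotypes did not overlap, with means of 0.672% ± 0.172 (SD, n = 3) in WT and 1.12% ± 0.173 (SD, n = 3) in ING4-/-, and the exact two-sided permutation p was 0.10, the smallest that 3 against 3 libraries allow. Within populations the ING4-/- share was 1.53-fold (LT-HSC), 1.68-fold (ST-HSC) and 1.90-fold (MPP) that of WT. Wilson 95% intervals were narrow, such as 0.829% to 0.841% in WT LT-HSCs, but they cover counting error only, as reads without molecular identifiers are not independent molecules.

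The size of this difference rested on the denominator. When the receptor-gene density was taken off the library totals, WT shares became 1.26%, 1.035% and 0.638% against 1.28%, 1.16% and 0.936% in ING4-/-, and the genotypes overlapped (difference of means 0.146 percentage points against 0.452 with all counts, exact p = 0.60). After that subtraction the ING4-/- share was 1.01-fold, 1.12-fold and 1.47-fold that of WT. With TMM effective library sizes as the denominator the difference was larger, at 0.727 percentage points (exact p = 0.10). In bulk samples such as these, fewer cells of a type and less RNA per cell cannot be told apart. Within both genotypes the share was highest in LT-HSCs and lowest in MPPs.

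mRNAs and tRNAs differed between genotypes in opposite directions. The 13 mRNA genes took 0.807%, 0.664% and 0.480% of the counts in WT and 1.27%, 1.15% and 0.932% in ING4-/-. The 22 tRNA genes took 0.0282%, 0.0257% and 0.0117% in WT and 0.00304%, 0.00701% and 0.00438% in ING4-/-. Neither class overlapped between genotypes, and each had an exact p of 0.10, the smallest possible. Unlike the mRNA share, the tRNA share stayed apart when the receptor-gene density was taken off the totals, at 0.0152% to 0.0426% in WT against 0.00304% to 0.00701% in ING4-/-. Counts on tRNA genes were 3.38%, 3.72% and 2.38% of the mitochondrial counts in WT and 0.238%, 0.604% and 0.468% in ING4-/-, which does not depend on the library total.

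**Figure D1:**
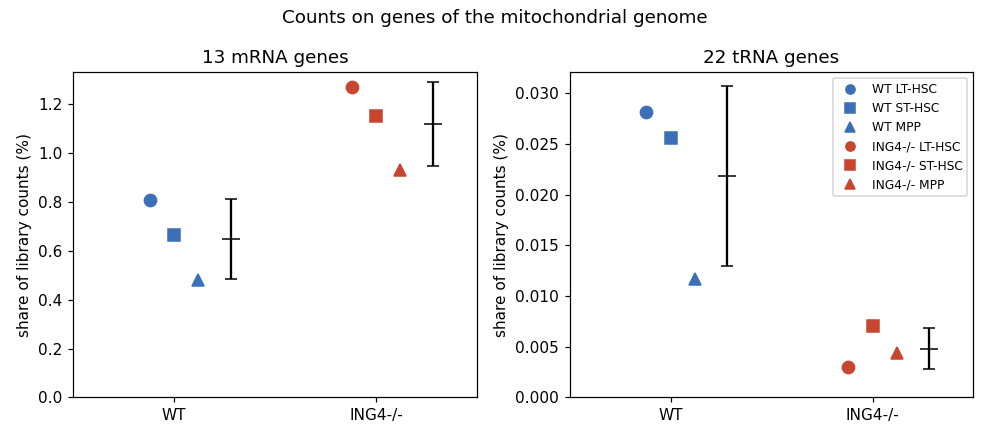
Share of all counts of a library (%, linear axes from 0) on the 13 mitochondrial mRNA genes (left) and the 22 tRNA genes (right). Each point is 1 library, its shape the population, and the black bar is the mean ± SD of the 3 libraries of a genotype. mRNA shares lie between 0.480% and 0.807% in WT and between 0.932% and 1.27% in ING4-/-, whereas tRNA shares are 0.0117% or more in all WT libraries and 0.00701% or less in all ING4-/- libraries.

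Across genes, the edgeR quasi-likelihood fit with TMM normalization tested 28 of the 35 genes in ING4-/- against WT, and calls needed an adjusted p below 0.05 together with a log2 fold change beyond 1 in either direction. It called 5 genes higher, all of them mRNAs, and 11 lower, of which 3 are mRNAs and 8 tRNAs. The other 12 tested genes were not called, and 7 genes with few counts were not tested. Of all 31001 tested genes 7.98% passed as higher and 56.7% as lower, with −6.85 as the median of their log2 fold changes, so 5 of 28 higher and 11 of 28 lower have to be read against a table in which most genes fell. The filter keeps a gene that is abundant in 1 genotype alone, and such a gene had to differ. With at least 10 counts required in every library, 9673 genes remained. Of these 8.3% passed as higher and 9.68% as lower, and their median was 0.020. Of the 18 mitochondrial genes among them, 2 were higher (mt-Co1 and mt-Cytb) and 7 lower (mt-Co3, mt-Nd3, mt-Nd5, mt-Tv, mt-Tq, mt-Tl1 and mt-Tm). With population as a block in the fit, 4 of 28 were higher (mt-Nd2, mt-Co1, mt-Cytb and mt-Nd4) and 6 lower (mt-Nd4l, mt-Tv, mt-Tq, mt-Tr, mt-Th and mt-Tl2). Over all 31001 genes that fit called 1999 higher and 16880 lower. Of the 6, mt-Nd4l, mt-Tr, mt-Th and mt-Tl2 passed the filter through WT alone.

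mt-Co1 and mt-Cytb, the 2 highest mRNAs per length in 5 of the 6 libraries, both rose. mt-Co1, the catalytic core of complex IV, had 18032, 13474 and 14114 counts in WT and 208684, 179725 and 147460 in ING4-/-. Per length this was 1489, 1084 and 976 CPM per kb in WT and 3794, 3077 and 2435 in ING4-/-. Its log2 fold change was 1.82 (SE 0.20, edgeR adjusted p = 6.57e-04), and the genotypes did not overlap. mt-Cytb, the only mitochondrially encoded subunit of complex III and a gene with no nuclear copy among the windows searched, stood at 1309, 1058 and 962 CPM per kb in WT and 3084, 2817 and 2262 in ING4-/-. Its log2 fold change was 1.72 (SE 0.16, adjusted p = 6.57e-04) and was alike in LT-HSCs (1.70), ST-HSCs (1.88) and MPPs (1.57). Both calls stood with population as a block (adjusted p = 0.00680 for mt-Co1 and 0.00715 for mt-Cytb). After subtraction of the receptor-gene density both fell short of the fold threshold, with log2 fold changes of 1.00 for mt-Co1 (adjusted p = 0.00552) and 0.90 for mt-Cytb (adjusted p = 0.00307).

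Of the 7 complex I genes 1 was called higher, 2 lower (mt-Nd3 and mt-Nd4l, given below) and 4 were not called. mt-Nd2 rose, from 201, 256 and 215 CPM per kb in WT to 361, 520 and 371 in ING4-/- (log2 fold change 1.32, SE 0.22, adjusted p = 0.00141). It was not called at 0.50 after subtraction of the receptor-gene density (adjusted p = 0.108), nor at 0.81 with at least 10 counts in every library, 0.95 with DESeq2 size factors or 0.88 with library totals alone. mt-Nd1, whose WT level per length was close to that of mt-Co1, was 1297, 1255 and 772 CPM per kb in WT and 1296, 1945 and 1337 in ING4-/-, so that LT-HSCs of both genotypes had the same level on this scale. Its log2 fold change of 0.90 (SE 0.25, adjusted p = 0.0138) and the 0.999 of mt-Nd4 (SE 0.23, adjusted p = 0.00553) lay below the fold threshold. Both turned to −0.26 and −0.15 when libraries were scaled to their mitochondrial total. mt-Nd5 had the opposite pattern, at 1040, 812 and 413 CPM per kb in WT against 418, 230 and 282 in ING4-/-. The lowest WT library of mt-Nd5 reached below the highest ING4-/- library, and its log2 fold change of −0.85 was not called (SE 0.34, adjusted p = 0.0600). It was called lower at −1.38 with at least 10 counts in every library, −1.23 with DESeq2 size factors and −1.68 with the receptor-gene density subtracted. With upper-quartile normalization it was −0.26 and not called. mt-Nd6, the one mRNA of the minus strand, was 494, 465 and 272 CPM per kb in WT and 320, 271 and 300 in ING4-/- (log2 fold change −0.03, SE 0.24, adjusted p = 0.916). It was −0.86 with the receptor-gene density subtracted and 0.56 with upper-quartile normalization, not called in either. Scaled to the mitochondrial total it was called lower at −1.17.

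The 6 mRNAs inside the copied stretch had far fewer counts than their neighbours in every library. mt-Co2 had 3 counts in each WT library and 37, 44 and 34 in ING4-/- (log2 fold change 1.92, SE 0.46, adjusted p = 0.00701). mt-Atp6 had 4, 4 and 6 counts in WT and 109, 72 and 54 in ING4-/- (log2 fold change 2.34, SE 0.53, adjusted p = 0.00578). Both WT values are below the counts that the receptor-gene density alone would give genes of that length, 12.5 to 15.7 for either gene. Neither gene was tested at the minimum of 10 counts in every library. As mt-Co2 passed the filter through ING4-/- alone, its call had to follow from its ING4-/- counts. mt-Atp8 had 2, 0 and 0 counts in WT and 6, 5 and 4 in ING4-/- and was not tested.

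The remaining 3 genes of the stretch fell. mt-Co3, a complex IV subunit, had 196, 193 and 83 counts in WT and 90, 137 and 84 in the deeper ING4-/- libraries, which is 31.9, 30.6 and 11.3 CPM per kb against 3.22, 4.62 and 2.73. mt-Nd3 went from 135, 117 and 45.7 CPM per kb to 12.2, 15.1 and 12.6. mt-Nd4l had 263, 173 and 94 counts in WT and 1, 1 and 25 in ING4-/-. The log2 fold changes were −2.35 for mt-Co3 (SE 0.64, adjusted p = 0.0135), −2.45 for mt-Nd3 (SE 0.56, adjusted p = 0.00600) and −6.08 for mt-Nd4l (SE 1.49, adjusted p = 0.00825). Without ING4-/- MPPs that of mt-Nd4l was −8.88. With population as a block mt-Nd4l alone of these 5 called genes stayed called (adjusted p = 0.0369), while the others reached 0.0547 (mt-Nd3), 0.136 (mt-Co3), 0.172 (mt-Co2) and 0.175 (mt-Atp6). However, mt-Nd4l passed the filter through WT alone and was not tested at the minimum of 10 counts. Its calls in both fits had to follow from its WT counts. Leaving out WT LT-HSCs or WT ST-HSCs also ended the call of mt-Co3 (adjusted p = 0.0534 and 0.0649), and leaving out WT ST-HSCs that of mt-Co2 (adjusted p = 0.0518).

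**Figure D2:**
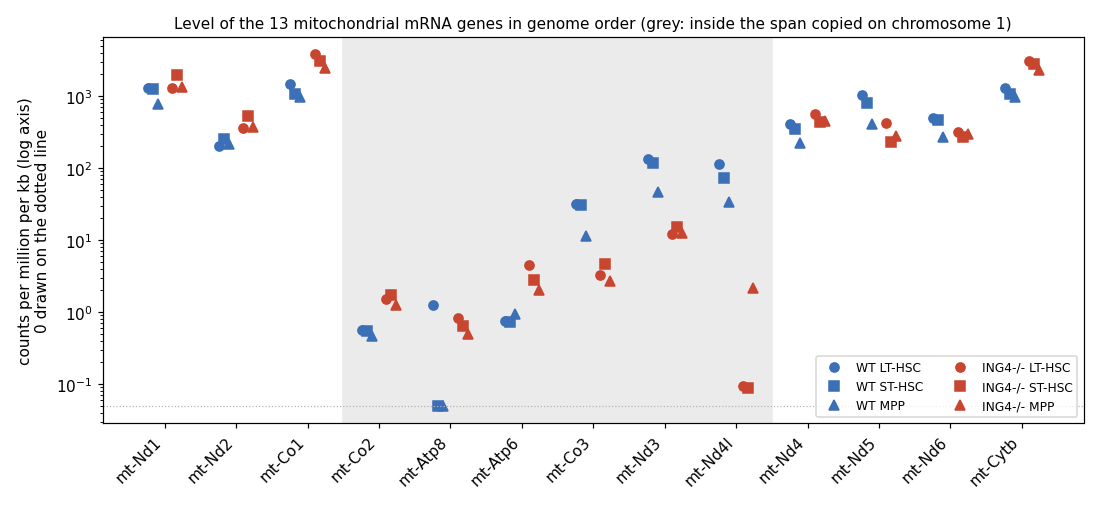
Level of each mitochondrial mRNA gene in CPM per kb (log axis, 0 drawn on the dotted line), with genes in genome order. Each point is 1 library, coloured by genotype and shaped by population, and the grey band marks the 6 genes inside the stretch copied on chromosome 1. Outside the band all levels are at least 201 CPM per kb. Inside it none exceeds 135, and those of mt-Co2 and mt-Atp6 reach 4.50 at most.

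The pseudogenes that face this stretch held counts as well. Gm28437, the copy of mt-Co3 and the pseudogene with most counts, had 69, 64 and 64 counts in WT and 1139, 1309 and 1128 in ING4-/-, or 8.80, 7.95 and 6.84 CPM against 32.0, 34.6 and 28.8. Gm29216, which faces the end of mt-Co1, had 38, 46 and 49 counts in WT and 667, 748 and 592 in ING4-/-. In ING4-/- libraries the copies of mt-Co3, mt-Co2 and mt-Atp6 held more counts than the mitochondrial genes themselves, and the copy of mt-Co2 (472, 505 and 404 counts) exceeded mt-Co2 (37, 44 and 34) in all 3. The copy of mt-Nd4l, with 7, 5 and 8 counts, exceeded mt-Nd4l (1, 1 and 25) in ING4-/- LT-HSCs and ST-HSCs. In WT the copies of mt-Co2 and mt-Atp6 held more than the mitochondrial genes as well, while mt-Co3 itself (196, 193 and 83 counts) held more than its copy. The copy of mt-Nd4, Gm28439, had only 5, 6 and 1 counts in WT and 11, 15 and 11 in ING4-/-, although its 876 bases match mt-Nd4 without a mismatch, and the copies of mt-Nd4l and mt-Nd3 had 1 to 8 and 2 to 40 counts over the 6 libraries. Together the 7 pseudogenes held 20.7, 24.4 and 20.9 CPM in WT and 73.6, 80.6 and 61.9 CPM in ING4-/- (exact p = 0.10). The 6 mRNAs inside the stretch together went the other way, from 106.6, 87.0 and 35.8 CPM in WT to 11.1, 12.1 and 9.52 CPM in ING4-/-. A wider search for annotated transcripts with at least 95% identity over 200 bases added 4 pseudogenes. They match parts of mt-Nd5 and mt-Nd2 and the whole length of mt-Co2 and mt-Co1. The 11 pseudogenes summed to 30.3 to 38.7 CPM in WT and 68.3 to 88.8 CPM in ING4-/-.

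**Figure D3:**
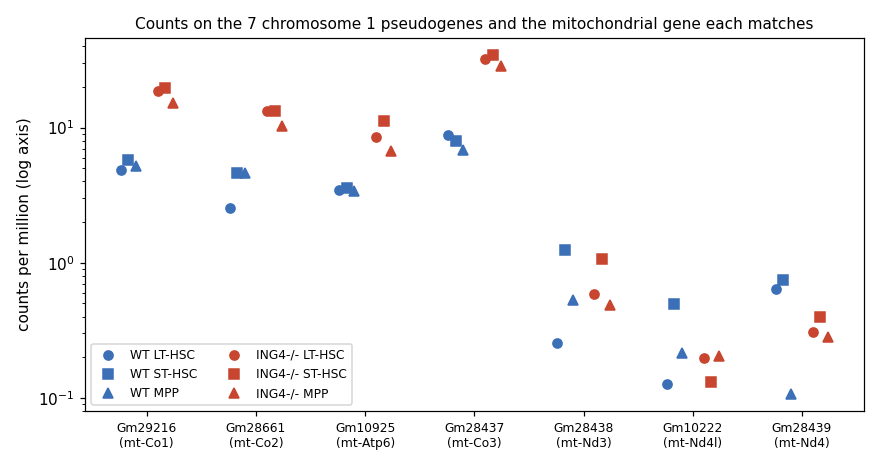
Level in CPM (log axis) on the 7 chromosome 1 pseudogenes, each named with the mitochondrial gene it matches. Each point is 1 library, coloured by genotype and shaped by population. For Gm29216, Gm28661, Gm10925 and Gm28437 all ING4-/- libraries lie above all WT libraries, whereas Gm28438, Gm10222 and Gm28439 stay below 1.3 CPM in every library.

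Since a library total enters most values above, the genes were also compared with each other within a library. mt-Nd5 carried 23.5%, 22.3% and 15.7% of the mitochondrial mRNA counts in WT and 5.99%, 3.63% and 5.51% in ING4-/-. mt-Co1 carried 28.5%, 25.2% and 31.4% in WT and 46.1%, 41.2% and 40.4% in ING4-/-. The per-length ratio of mt-Co1 to mt-Nd5 was 1.43, 1.34 and 2.36 in WT and 9.08, 13.4 and 8.65 in ING4-/-. Of mt-Cytb to mt-Nd5, neither of which has a copy among the windows searched, the ratio was 1.26, 1.30 and 2.33 in WT and 7.38, 12.3 and 8.03 in ING4-/-. The ratios of mt-Nd1 and mt-Nd2 to mt-Nd5 were also higher in ING4-/- in every population, with mt-Nd1 to mt-Nd5 at 1.25, 1.55 and 1.87 in WT and 3.10, 8.47 and 4.75 in ING4-/-. The ratio of mt-Co1 to mt-Cytb differed less, at 1.14, 1.02 and 1.02 (WT) and 1.23, 1.09 and 1.08 (ING4-/-). It too was higher in ING4-/- within each population, but the genotypes overlapped.

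By complex, the 7 complex I genes held 52.6%, 56.2% and 45.5% of the mRNA counts in WT and 26.2%, 30.8% and 31.8% in ING4-/-. Complex III held 18.2% to 22.9% across WT libraries and 27.7% to 27.9% across ING4-/- libraries, and complex IV stood at 25.6% to 31.6% in WT and 40.4% to 46.1% in ING4-/-. None of these shares overlapped between genotypes, each with an exact p of 0.10, the smallest possible, and for complex IV nearly all counts were those of mt-Co1. The 9 genes of the minus strand, mt-Nd6 among them, held 3.83%, 4.38% and 3.56% of mitochondrial counts in WT and 1.41%, 1.54% and 1.90% in ING4-/-, a difference of means of −2.31 percentage points that was −0.943 without genes that share bases or have a nuclear copy. The order of levels was steadier than their size. mt-Co1, mt-Cytb and mt-Nd1 were the 3 highest mRNAs per length in all 6 libraries, with mt-Nd1 first in WT ST-HSCs and mt-Co1 first in the others. mt-Nd5 came next in the 3 WT libraries, whereas mt-Nd4 or mt-Nd2 did in ING4-/- libraries.

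**Figure D4:**
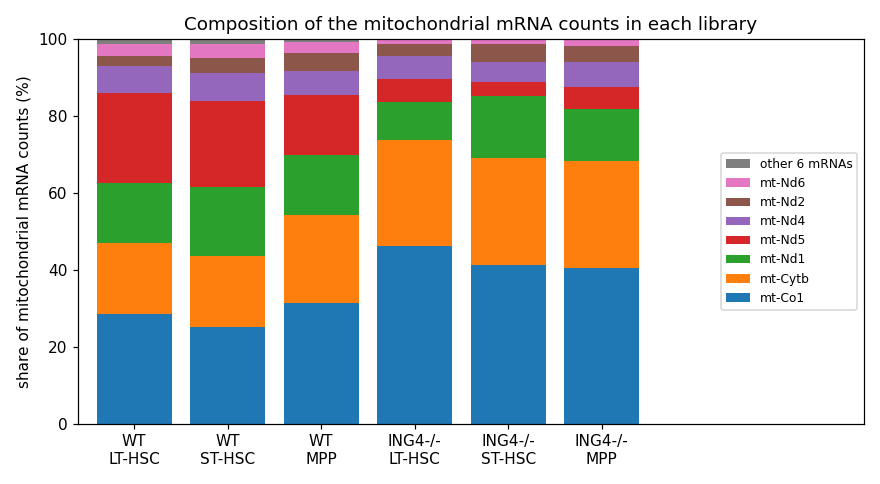
Share of the mitochondrial mRNA counts (%) taken by each gene, 1 stacked bar per library summing to 100%. The 6 genes inside the copied stretch are drawn together as the other 6 mRNAs. mt-Nd5 takes 15.7% to 23.5% in WT and 3.63% to 5.99% in ING4-/-, and mt-Co1 25.2% to 31.4% in WT and 40.4% to 46.1% in ING4-/-.

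The tRNA genes are described by strand. Of the 14 tRNA genes on the plus strand, transcribed from the heavy strand together with 12 mRNAs, 10 passed the filter and 7 were called lower. Several of these passed through WT alone, where they are high, so their count is a description. Of the 8 on the minus strand, 6 passed and 1 was called lower (mt-Tq, for glutamine). The share called lower over all tested genes was 56.7%. With at least 10 counts in every library, 3 of 4 plus-strand and 1 of 5 minus-strand tRNA genes were called lower, beside 9.68% of all genes. With population as a block 4 of 10 and 1 of 6 were called lower, beside 16880 of all 31001 genes. In WT 22.7%, 23.7% and 29.2% of the tRNA counts were on minus-strand genes, against 43.3%, 54.8% and 50.2% in ING4-/- (exact p = 0.10, the smallest possible). How reads that cross from a tRNA into its neighbour were counted is not given in the sources used here, and such reads come from uncut precursors as well as from tRNAs.

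No count remained in ING4-/- on mt-Tr and mt-Th, the tRNAs for arginine and histidine shown above. mt-Tr had 66, 54 and 22 counts in WT and 0 in every ING4-/- library, at least 72.8-fold lower in CPM when each ING4-/- library is set at a floor of 3 counts. mt-Th had 55, 67 and 19 counts in WT and 0 in every ING4-/- library, at least 72.3-fold lower. Both genes passed the filter through WT alone and were not tested at the minimum of 10 counts, so the calls in the fit had to follow from their WT counts. mt-Tl2 was nearly as low, with 97, 96 and 41 counts in WT and 7, 0 and 0 in ING4-/- (log2 fold change −6.68, SE 1.60, adjusted p = 0.00739). This gene also passed the filter through WT alone, so its call had to follow from its WT counts. Without ING4-/- LT-HSCs, which leaves ING4-/- at 0, the fitted value was −10.26, and without ING4-/- MPPs it was −6.09. mt-Ts2, which lies between mt-Th and mt-Tl2 and is the tRNA for serine (AGY codons), had 28, 26 and 4 counts in WT and 3, 0 and 0 in ING4-/- and was not tested. In WT the receptor-gene density would give mt-Tr, mt-Th, mt-Tl2 and mt-Ts2 between 1.08 and 1.63 counts each.

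The 2 tRNAs at the start of the heavy-strand transcript fell as well. mt-Tf, for phenylalanine, had 151, 159 and 66 counts in WT and 0, 2 and 16 in ING4-/- (log2 fold change −6.15, SE 1.53, adjusted p = 0.00876, and 0.0508 with population as a block). It was −8.39 without ING4-/- MPPs and −5.55 without ING4-/- LT-HSCs. Like mt-Tr and mt-Th, mt-Tf passed the filter through WT alone, so its call had to follow from its WT counts. mt-Tv, for valine and lying between the rRNA genes, had 575, 453 and 220 counts in WT and 35, 13 and 33 in ING4-/- (log2 fold change −5.70, SE 0.73, adjusted p = 6.57e-04). Set against mt-Nd1 downstream, the per-length ratio of mt-Tv was 0.820, 0.650 and 0.441 in WT and 0.0110, 0.00256 and 0.00912 in ING4-/-. mt-Tl1, the tRNA directly before mt-Nd1 and the one for leucine (UUR codons), had 586, 516 and 271 counts in WT and 510, 876 and 673 in ING4-/-, and its log2 fold change of −1.17 was not called (SE 0.45, adjusted p = 0.0548). It was called at −1.71 with at least 10 counts in every library (adjusted p = 0.0357).

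Of the tRNAs around mt-Nd2, mt-Ti for isoleucine and mt-Tq had log2 fold changes of −3.34 and −3.18 (SE 0.57 and 0.56, adjusted p = 0.00139 and 0.00168) and were both called lower, with 33, 47 and 20 counts of mt-Ti in WT and 11, 9 and 13 in ING4-/-. mt-Tq had 271, 265 and 178 counts in WT and 66, 118 and 80 in ING4-/-. mt-Ti passed the filter through WT alone and was not called with population as a block (adjusted p = 0.0925). mt-Tm, for methionine, had 79, 113 and 75 counts in WT and 26, 169 and 61 in ING4-/- and was not called (log2 fold change −1.80, adjusted p = 0.0834). mt-Tt, for threonine, had 15, 12 and 18 counts in WT and 9, 23 and 18 in ING4-/-. Its log2 fold change of −1.58 was called (SE 0.51, adjusted p = 0.0291) but not with population as a block (adjusted p = 0.254) nor without any 1 of the 6 libraries (adjusted p = 0.0522 to 0.172).

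The minus-strand tRNAs other than mt-Tq were not called in either direction in the fit of all 6 libraries with TMM normalization. mt-Tn had 39, 49 and 58 counts in WT and 72, 496 and 261 in ING4-/- (log2 fold change 0.77, SE 0.76, adjusted p = 0.415). mt-Tc had 33, 26 and 15 counts in WT and 73, 322 and 166 in ING4-/- (log2 fold change 1.17, SE 0.71, adjusted p = 0.190). Leaving out 1 library gave log2 fold changes of 0.019 to 1.24 for mt-Tn and 0.51 to 1.57 for mt-Tc. mt-Te had 3, 10 and 4 counts in WT and 28, 81 and 64 in ING4-/- (log2 fold change 1.58, SE 0.68, adjusted p = 0.0799). It was called higher at 2.16 with upper-quartile normalization (edgeR adjusted p = 0.0251) and at 2.25 without WT ST-HSCs (edgeR adjusted p = 0.0451). mt-Ta for alanine (log2 fold change −0.09), mt-Tp for proline (−0.26) and the plus-strand mt-Tw for tryptophan (−0.12) had adjusted p-values of 0.732 to 0.929. In all 3 genes, as in mt-Tn and mt-Tc, the highest ING4-/- library in counts was that of ST-HSCs.

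Of the tRNA genes 5 lie inside the copied stretch, and besides mt-Tr they held almost no counts in either genotype. mt-Td for aspartate and mt-Tk for lysine had 0 counts in all 6 libraries, mt-Ts1 for serine (UCN codons) had at most 2, and mt-Tg for glycine had 12, 14 and 1 in WT and 0, 13 and 2 in ING4-/-. mt-Ty for tyrosine, which lies outside it, had 3, 29 and 6 counts in WT and 2, 5 and 11 in ING4-/-. At a count of 0 the level may still reach that of 3 counts, equal to 0.320 to 0.383 CPM in WT and 0.0766 to 0.0843 CPM in ING4-/-.

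**Figure D5:**
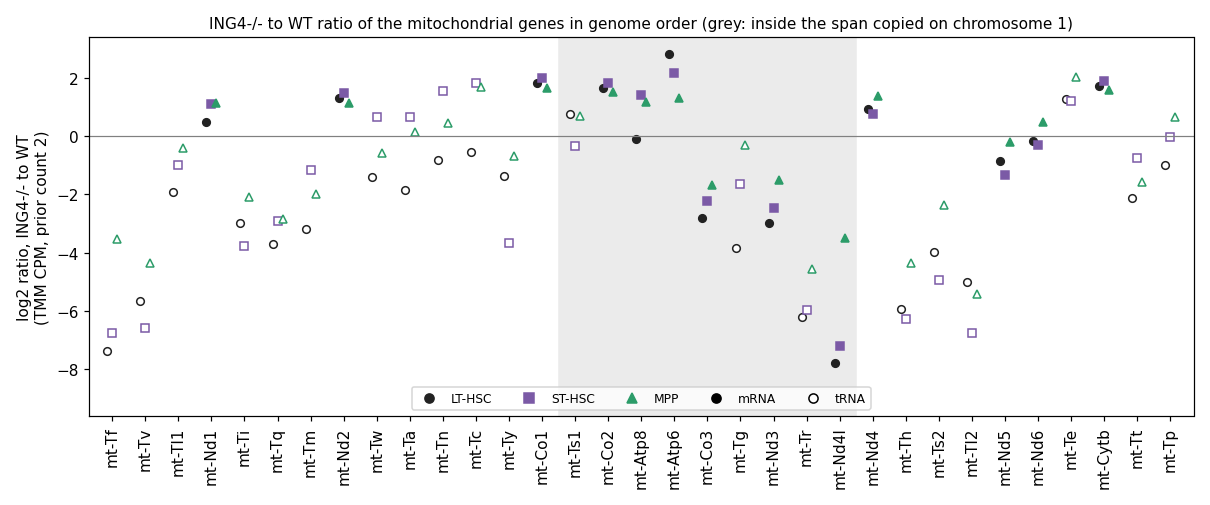
Log2 ratio of ING4-/- to WT within each population (TMM-normalized CPM, prior count 2) for the 33 genes with any count, in genome order. Each point rests on 1 library per genotype, filled points are mRNAs and open points tRNAs, and the grey band marks genes inside the stretch copied on chromosome 1. mt-Co1 and mt-Cytb lie between 1.57 and 1.97 in all populations, and mt-Tf, mt-Tv, mt-Tr, mt-Th and mt-Tl2 lie below −3.5 in all populations.

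Differences between populations were next tested over both genotypes. With genotype in the fit, edgeR called 0 of 36170 genes for population (0%), and 407 had an unadjusted p under 0.05. Among the 31 mitochondrial genes tested none was called and 1 had an unadjusted p under 0.05. This was mt-Co1, with log2 differences of −0.31 from LT-HSCs to ST-HSCs and −0.53 from LT-HSCs to MPPs (adjusted p = 1). Upper-quartile normalization gave 0 called mitochondrial genes and 2 with an unadjusted p under 0.05, and at least 10 counts in every library gave 0 and 5. From LT-HSCs to MPPs mt-Nd5 differed by −1.18 in WT and by −0.55 in ING4-/- on the log2 scale, mt-Cytb by −0.29 and −0.42, and mt-Nd1 by −0.60 and 0.07, values that rest on 1 library each.

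The nuclear genes that transcribe, process and maintain this genome were described as a list of 56, all of which were tested. In ING4-/- 14 were called higher, 3 lower and 39 were not called, with a median log2 fold change of 0.38 beside −6.85 for all tested genes, of which 7.98% passed as higher and 56.7% as lower. The median of the list was 0.01 with DESeq2 size factors and −0.05 with library totals alone, which left 4 and 2 genes called higher. Over all 31001 tested genes these settings called 1342 and 1186 higher. With at least 10 counts in every library 1 of 46 was higher, Hsd17b10, a subunit of the enzyme that cuts the 5′ ends of mitochondrial tRNAs, and 2 were lower, Nsun3 and Primpol. Of all 9673 genes at that minimum 8.3% were higher and 9.68% lower. Leaving out 1 WT library at a time left 9, 6 and 9 genes higher and 1, 0 and 1 lower. Over all 34725, 32547 and 32386 genes then tested, 1859, 1705 and 1886 were higher and 20464, 18238 and 18189 lower.

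Of the transcription machinery, Polrmt, the mitochondrial RNA polymerase, had 325, 427 and 420 counts in WT and 510, 1238 and 3330 in ING4-/-, and its log2 fold change of 0.34 was not called (SE 0.62, adjusted p = 0.664). Tfam, which packages mitochondrial DNA and starts its transcription, had 485, 456 and 625 counts in WT and 2953, 4225 and 3855 in ING4-/- and rose by 1.08 (SE 0.24, adjusted p = 0.00514). Tefm, the elongation factor, rose by 1.57 (SE 0.55, adjusted p = 0.0370), with 80, 142 and 136 counts in WT and 1168, 586 and 1846 in ING4-/-. Tfb2m, the initiation factor, was not called (0.72, adjusted p = 0.115). With population as a block Tfam stayed called (adjusted p = 0.0369) and Tefm did not (0.129).

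Of the pair that binds and stabilizes mitochondrial mRNAs, Slirp rose by 1.41 (SE 0.24, adjusted p = 0.00134), from 368, 404 and 341 counts in WT to 3062, 3364 and 3528 in ING4-/-, and Lrpprc was not called (0.37, adjusted p = 0.462). For the replication enzymes, Twnk, the helicase, had a log2 fold change of 0.36 (adjusted p = 0.512) and Polg, the DNA polymerase, of −0.50 (adjusted p = 0.784), where Polg had 535, 488 and 839 counts in WT and 3, 1889 and 2542 in ING4-/-. The called genes of largest fold that moved the same way in all populations were Mterf1b, a termination factor (−3.50, SE 1.18, adjusted p = 0.0332), Nsun3, which methylates mt-Tm (−2.15, SE 0.61, adjusted p = 0.0168), and Mrm2, an rRNA methyltransferase (1.85, SE 0.50, adjusted p = 0.0131). None of these 3 was called with population as a block (adjusted p = 0.0905, 0.0817 and 0.101). Mterf1b is uncertain because its near-identical paralog Mterf1a had 1, 37 and 35 counts in WT and 696, 427 and 257 in ING4-/- where Mterf1b had 57, 54 and 47 and 1, 39 and 6.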

How the data were processed

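RNA-seq was analysed for 6 libraries (1 per population and genotype), grouped by the genotype and population in the sample labels. The values the authors deposited are raw counts of reads over the exons of each Ensembl gene and were not normalized. The genome build is mm10 per the submitters' processing notes, while the aligner, the counting program, the strand setting and the treatment of reads with several matches are not given in the sources used here. Gene names, sequences and overlaps came from the GENCODE annotation and transcripts of GRCm38, which held 48970 of the identifiers, and the positions of 35 of 35 mitochondrial genes were identical in both. The genome sequence was not used here, so nuclear copies were sought in annotated transcripts only (BLAST 2.17.0, at least 95% identity over 200 bases, and exact windows of 100 bases).

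From the counts, genotypes were compared by the quasi-likelihood test of edgeR 4.0.16 in R 4.3.3, after filterByExpr by genotype and TMM scaling, with Benjamini-Hochberg adjustment over all tested genes and the thresholds of 0.05 for the adjusted p and 1 for the log2 fold change. Where nothing says that samples came from separate pools, p-values measure only the spread between these libraries. Shares were compared by exact two-sided permutation tests. The prior count was 2 for log2 ratios inside a population. Deviations from the genotype means correlated weakly between both libraries of a population over 9673 genes (r = 0.143 in LT-HSCs, r = 0.110 in ST-HSCs, r = 0.121 in MPPs). Libraries of different populations were not compared in this way. Population as a block was an alternative. Other alternatives were other normalizations, DESeq2 1.42.0, other filters, leaving out each library, subtraction of the receptor-gene density from every count and scaling to the mitochondrial total. The count minimum of 10 combined with the block was chosen after seeing the data. Total counts were 7839326 to 9363442 in WT and 35596876 to 39192588 in ING4-/-.

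All genes of chromosome MT were named. Of the pathway list, Polrmt, Tfam, Tfb2m, Tefm, Lrpprc, Slirp, Twnk, Polg and the 3 called genes of largest fold moving the same way in all populations were named by rule, while Hsd17b10, Primpol and Mterf1a were named after their values were seen. The genes, lists and tests were chosen with earlier results of these data known.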

Additional observations from a re-analysis of the deposited data

Results flagged for a closer look

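Within populations 4 genes lay on opposite sides of 0, each value resting on 1 library per genotype, and the difference between populations was not tested. They were picked because the counting intervals of 2 populations excluded 0 on opposite sides, and these intervals cover counting error only. The log2 ratio of ING4-/- to WT of mt-Ta was −1.85, 0.66 and 0.13 in the order LT-HSC, ST-HSC, MPP. For mt-Tn it was −0.81, 1.555 and 0.43, and for mt-Tp it was −0.99, −0.034 and 0.64. mt-Nd6, the mRNA of the same strand as these 3 tRNAs, had ratios of −0.16, −0.31 and 0.48.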

How the results depend on the processing

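Direction and side of the threshold were the same as reported in 338 of 425 values of single mitochondrial genes under 16 alternatives, while 37 gained a call, 32 lost one and 18 changed sign. All sign changes were of genes not called. Scaling to the mitochondrial total turned mt-Nd1 (−0.26), mt-Nd4 (−0.15) and mt-Tn (−0.45), upper-quartile normalization turned mt-Tw (0.48), mt-Ta (0.51), mt-Nd6 (0.56) and mt-Tp (0.33), no filter turned mt-Nd6 (0.052), and mt-Tn turned with the receptor-gene density subtracted (−0.025) and with the count minimum and block together (−0.10). Leaving out 1 library gave −1.02 to 0.35 for mt-Tw, −1.005 to 0.35 for mt-Ta, −0.36 to 0.035 for mt-Nd6 and −0.73 to 0.074 for mt-Tp. Mitochondrial genes called higher numbered 8 with upper-quartile normalization, 3 in the DESeq2 Wald test, 2 with at least 10 counts, with the density subtracted and with count minimum and block together, and 0 of 29 when scaled to the mitochondrial total. After subtraction these were mt-Co2 and mt-Atp6, whose WT counts lie below the density taken off and are set to 0 by it, so these calls follow from the subtraction. Those called lower numbered 7 with at least 10 counts and 6 with population as a replicate block, alone or with the minimum. Other settings gave more than the reported 11. Lower calls numbered 16 in the DESeq2 Wald test and when scaled to the mitochondrial total. They numbered 14 with DESeq2 size factors and with library totals alone, and 13 with the density subtracted. Over all genes these 5 settings called 24160 of 44670, 20281 of 31759, 18080 of 31001, 18164 of 31001 and 7575 of 19651 lower. Leaving out 1 library gave 5 to 6 higher and 10 to 14 lower.

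Pathway genes called higher numbered 4 with DESeq2 size factors, 23 with upper-quartile normalization, 2 with library totals alone, 6 in the DESeq2 Wald test and 1 with at least 10 counts, with that minimum and the block, and with the density subtracted. Those called lower numbered 0 with upper-quartile normalization and with the replicate block and 1 with the density subtracted. Leaving out 1 library gave 6 to 14 higher and 0 to 3 lower. The cause of these shifts was not tested. The median log2 fold change of all genes was −6.85 with TMM, −7.17 with DESeq2 size factors, −6.35 with upper-quartile normalization and −7.23 with library totals. Without genes that share bases or have a nuclear copy, which left 13 genes and mt-Cytb as the 1 mRNA, the tRNA share of mitochondrial counts still differed, by −9.77 percentage points. The lower depth of WT sets a higher floor there for genes at 0 than in ING4-/-.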
